A study of Mus musculus with 8 samples.

Results

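Genes that encode splicing factors and RNA helicases were examined in bulk RNA-Seq data of the mouse cardiac endothelial cell (MCEC) line. They were chosen by gene name alone: protein-coding genes of the deposited table named Srsf, Lsm, Rbm, Ddx or Dhx with a number, or beginning with Hnrnp, Sf3a, Sf3b, Snrp, Snrnp, Prpf, U2af, Celf, Mbnl, Rbfox, Esrp or Ptbp, without *Ddx58* and *Dhx58*, which encode sensors of viral RNA. By this rule 146 of the 8278 genes in the table were members. GENCODE, on the same mm10 build, lists 195 genes of these names, and the other 49 (among them *Snrpf*, *Snrpg*, *Srsf4*, *Mbnl1* and *Ddx41*) have no values here. The table lists only genes with an adjusted p under 0.05 in the comparison of these same libraries, so every member had already passed a test on the contrast described here.

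Total RNA was sequenced from *Hdac3* KO MCECs (4 libraries) and from EV MCECs (4 libraries). Both groups are the same established line and both received lentivirus: the KO cells a lentiCRISPR vector that carries Cas9 and an *Hdac3* guide, the EV cells the same kind of vector without the guide. The paper reports slower growth of the KO cells than of the EV cells, and the part of growth in the results below was not tested. The methods do not say whether the KO cells are 1 clone. On replication the sources are general: the methods say that experiments were repeated independently and that biological samples are counted, while the reporting summary also calls replicates of in vitro work technical. None says for these libraries whether the 4 samples of a group came from separate cultures, so p-values measure the spread between these samples, which may be technical. Library totals ran from 15775327 to 22255684 reads. *Hdac3*, the targeted deacetylase, had 1934, 2067, 2055 and 2137 normalized counts (reads divided by relative library size) in EV MCECs and 1551, 1458, 1489 and 1524 in the KO libraries, a log2 fold change of -0.45 ± 0.04 (SE). Reads from an edited gene are still counted, so a partial fall in its mRNA does not measure the loss of protein. In the paper, a western blot of KO and EV MCECs verified the deletion. Of 15 endothelial markers 6 were in the table, and 5 of these (*Tek*, *Kdr*, *Egfl7*, *Cd34* and *Eng*) were lower in *Hdac3* KO MCECs. *Pecam1*, a defining endothelial marker, was near 0, with a mean of 0.516 normalized counts in EV and 3.97 in *Hdac3* KO MCECs. The summed FPKM (reads per gene length and library total) of those 6 genes was 118.1 to 120.3 in EV libraries and 89.31 to 92.39 in KO libraries. For 4 of 6 fibroblast markers it was 1451 to 1491 against 1109 to 1131 (*Dcn*, *Pdgfra* and *Col3a1* were lower, *Col1a1* higher), for 2 of 4 smooth muscle markers 24.02 to 29.94 against 4.826 to 6.11, for 1 of 3 leukocyte markers (*Cd68*) 5.364 to 5.888 against 11.11 to 12.52, and 0 of 5 cardiomyocyte markers were in the table. The part of these shifts in the results below was not tested, and in bulk RNA fewer cells of a type and less RNA per cell cannot be told apart.

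Splicing removes introns from nuclear transcripts. U1 marks the start of an intron, U2 and its SF3 proteins bind the branch point, and U4/U6.U5 joins them to form the catalytic core. SR proteins and hnRNPs bind the transcript and help or hinder the choice of splice sites, and muscleblind, CELF, RBFOX, ESRP and PTBP proteins set cell type programs of exon use. DEAD-box (DDX) and DEAH-box (DHX) helicases spend ATP to remodel RNA and protein complexes. Some of them drive the steps of the spliceosome, while many others act in the nucleolus on ribosomal RNA, in mRNA export, in translation or in antiviral defence.

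Most members were higher in *Hdac3* KO MCECs, by small amounts. With edgeR's quasi-likelihood test and an adjusted p cut-off of 0.01 over all 8278 genes, 128 of the 146 members were higher, 15 were lower, and *Prpf19*, *Rbm45* and *Dhx35* did not pass. In the whole table the test called 47.1% of genes higher, 49.6% lower and 96.7% in either direction, so passing the test says little by itself, and the members' counts are given by direction. The median log2 fold change was 0.30 over the members, 0.06 over all genes and -0.11 over the 8132 genes outside the members. The median of the table is a loose reference, since leaving out 146 of 8278 genes turned its sign. In absolute size the median log2 fold change was 0.32, against 0.40 for all genes. Beyond 0.5 on the log2 scale 28 members (19.2%) were higher and 3 (2.05%) lower, against 15.1% and 23.4% of all genes. Libraries of the groups did not overlap for 122 members with higher and 15 with lower values in the KO, against 44.4% and 46.6% of the table.

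The count of higher members depends on the scale. TMM, the scaling between libraries used here, gave factors of 1.038 to 1.046 for EV and 0.957 to 0.962 for *Hdac3* KO libraries. It takes most genes as unchanged, but the table lists only genes with an adjusted p under 0.05, so these factors are uncertain. When counts were divided by library totals alone, 91 members were higher and 16 lower, against 32.3% and 49.8% of the table, and 37 members lost their call while 0 of those called were called in the opposite direction. The median over all genes then moved from 0.06 to -0.06, that of the genes outside the members from -0.11 to -0.23 and that of the members from 0.30 to 0.18. Most members are abundant transcripts. Among genes with at least 400 normalized counts in EV MCECs, 121 of 133 members were higher and 9 lower, where 2889 of all 5653 such genes were higher and 2541 lower. For 17 members more than 10% of the exon bases are shared with another gene, mostly on the opposite strand. Counting is not stated to have used the strand, so the values of these 17 may hold reads of a neighbour, and the share is given where such a member is described.

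**Figure D1:**
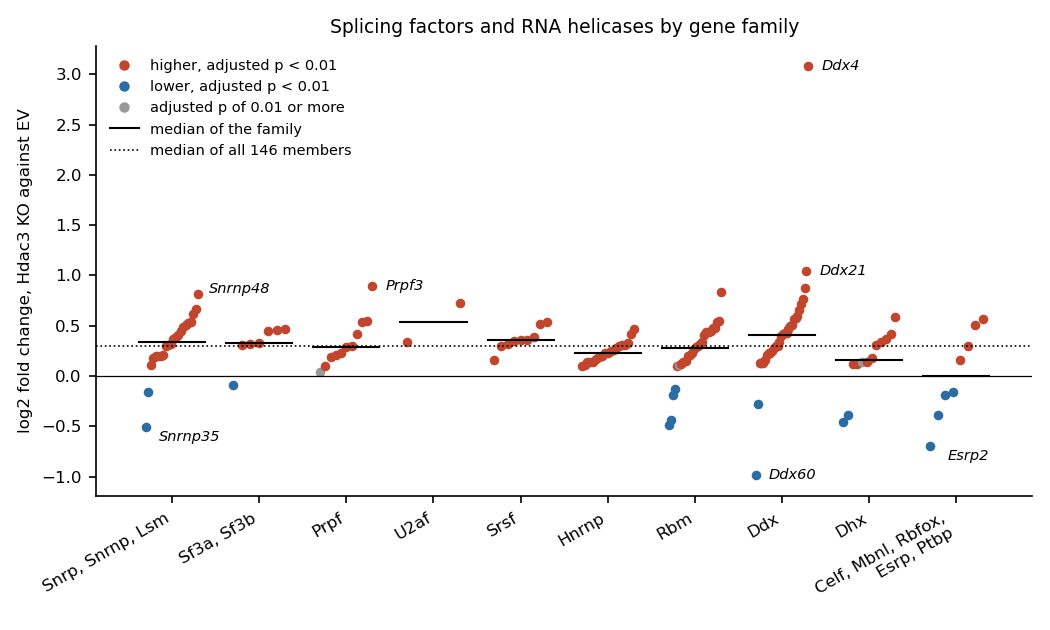
Log2 fold change of every member in *Hdac3* KO against EV MCECs, by gene family; each point is a gene, colour gives the edgeR call at adjusted p under 0.01, solid bars are family medians and the dotted line is the median of all 146 members (0.30). The points of 9 families lie mostly above 0, while the 8 Celf, Mbnl, Rbfox, Esrp and Ptbp genes spread evenly around it.

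Sm and LSm proteins form rings that hold the small nuclear RNAs. All 5 Sm genes with values (of 7) increased in *Hdac3* KO MCECs, with log2 fold changes from 0.20 for *Snrpd2* and *Snrpe* to 0.61 for *Snrpd3*. *Snrpd3* had 2335, 2225, 2188 and 2336 normalized counts in EV libraries and 3466, 3509, 3606 and 3328 in KO libraries, a 1.53-fold difference with no overlap. Without TMM 3 of these 5 kept their call. The LSm ring of U6, with 4 of 7 genes in the table, was split: *Lsm3*, *Lsm5* and *Lsm7* were higher (*Lsm3* by 0.50), while *Lsm4* fell by 0.16 on the log2 scale, from 2550.1 ± 104 to 2291 ± 88.5 normalized counts (SD, n = 4). The libraries of *Lsm7* overlapped between groups, and without TMM it lost its call, which left 2 genes of this ring higher and 1 lower. *Lsm12*, an LSm-domain gene outside the ring, had 1147, 1226, 1188 and 1149 normalized counts in EV and 1868, 1817, 1909 and 1894 in the KO libraries, a log2 fold change of 0.67.

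The 3 U1 proteins *Snrnp70*, *Snrpc* and *Snrpa* were higher by 0.31, 0.32 and 0.11 on the log2 scale. *Snrpa*, which shares 11% of its exon bases with *BC024978* on the opposite strand, did not keep its call without TMM (-0.01). Of 11 U2 proteins 9 had values, and 8 of these increased. *Sf3b1*, which clamps the branch point and is the SF3 gene with the largest increase, had 8928, 8788, 8804 and 8592 normalized counts in EV and 11867, 12234, 12194 and 12289.8 in *Hdac3* KO MCECs. That is a log2 fold change of 0.47 ± 0.02 (SE), with an adjusted p of 1.81e-18 in edgeR's test. *Sf3b2*, a subunit of the same complex, was the exception: its 11073, 11373, 11349.8 and 11176 normalized counts in EV stood just above its 10625, 10743, 10431 and 10529.7 in *Hdac3* KO MCECs. The groups of *Sf3b2* did not overlap, yet the difference was only -0.09 ± 0.02 (SE), adjusted p = 0.00117 in edgeR's test. The SF3 family as a whole had 6 higher and 1 lower of 7 members, with a median of 0.33 (0.21 without TMM).

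U2AF guides U2 to the end of the intron, the large subunit by its pyrimidine tract and the small subunit by its last bases. Both subunits were higher, to different degrees. *U2af1*, the small subunit (chr17:31647082-31658754), had 2209, 2099, 2084 and 2206 normalized counts in EV and 3669.7, 3569, 3483 and 3509.9 in *Hdac3* KO MCECs, 1.65-fold, with a log2 fold change of 0.73 ± 0.03 (SE) and an adjusted p of 2.68e-21 in edgeR's test. *U2af2*, the large subunit, had 5286, 5358, 5583 and 5754 against 6858, 6904, 7090.1 and 6955, a log2 fold change of 0.34 ± 0.03 (SE). In FPKM the small subunit went from 127 ± 4.0 to 193 ± 4.7 and the large from 133 ± 5.0 to 156 ± 2.2 (SD, n = 4). Their levels lay close together in EV and further apart in *Hdac3* KO MCECs, where the small subunit was the higher.

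The U4/U6.U5 proteins had the highest median of the particles, with 8 of 9 genes in the table, all 8 higher and a median log2 fold change of 0.52 (0.40 without TMM, where 6 of 8 were called). *Prpf3*, a U4/U6 protein (chr3:95830124-95855885, mm10), lay furthest out. It had 900.1, 873, 888 and 919 normalized counts in EV and 1701, 1666, 1615 and 1683 in *Hdac3* KO MCECs, 1.86-fold, a log2 fold change of 0.89 ± 0.04 (SE) with an adjusted p of 1.87e-21 in edgeR's test. *Prpf4*, its partner in the particle, went from 928 ± 40.7 to 1351 ± 17.7 normalized counts (SD, n = 4). *Prpf8*, the scaffold of the catalytic centre, had 10319.7, 11272, 10286 and 10473 normalized counts in EV and 15747, 15883, 14505 and 15777 in the KO libraries, a log2 fold change of 0.55. *Snrnp200*, the helicase that unwinds U4 from U6, differed by 0.49 and *Snrnp40*, another U5 protein, by 0.54. At the low end *Prpf6*, which bridges U5 to U4/U6, differed by 0.10 (-0.02 without TMM) and its libraries overlapped. Over the Prpf names as a family, 10 of 11 were higher with a median of 0.29, but without TMM only 5 were called higher and 1 lower (median 0.17). *Prpf19*, the ubiquitin ligase of the Prp19 complex, had 6779, 6686, 6699 and 6913 normalized counts in EV and 6947, 6997, 6917 and 6943 in *Hdac3* KO MCECs. These ranges touch but do not overlap, edgeR's adjusted p was 0.138, and without TMM the sign turned and *Prpf19* was called lower (-0.08, adjusted p = 0.00353 in edgeR's test).

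The minor spliceosome, which removes a small class of introns, gave opposite results for its U11/U12 proteins. *Snrnp48* had 203, 192, 211 and 173 normalized counts in EV and 304, 367, 326 and 366 in the KO libraries, a log2 fold change of 0.81 ± 0.08 (SE), adjusted p = 3.83e-11 in edgeR's test. *Snrnp35* had 237, 245, 205 and 282 against 182, 161, 185 and 159, a log2 fold change of -0.51 ± 0.09 (SE), adjusted p = 7.16e-06. Every KO library of *Snrnp48* lay above, and every KO library of *Snrnp35* below, the EV libraries. Both are low transcripts with the largest standard errors of the Snrp, Snrnp and Lsm names. *Snrnp25*, the remaining gene of this list, was not in the table.

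**Figure D2:**
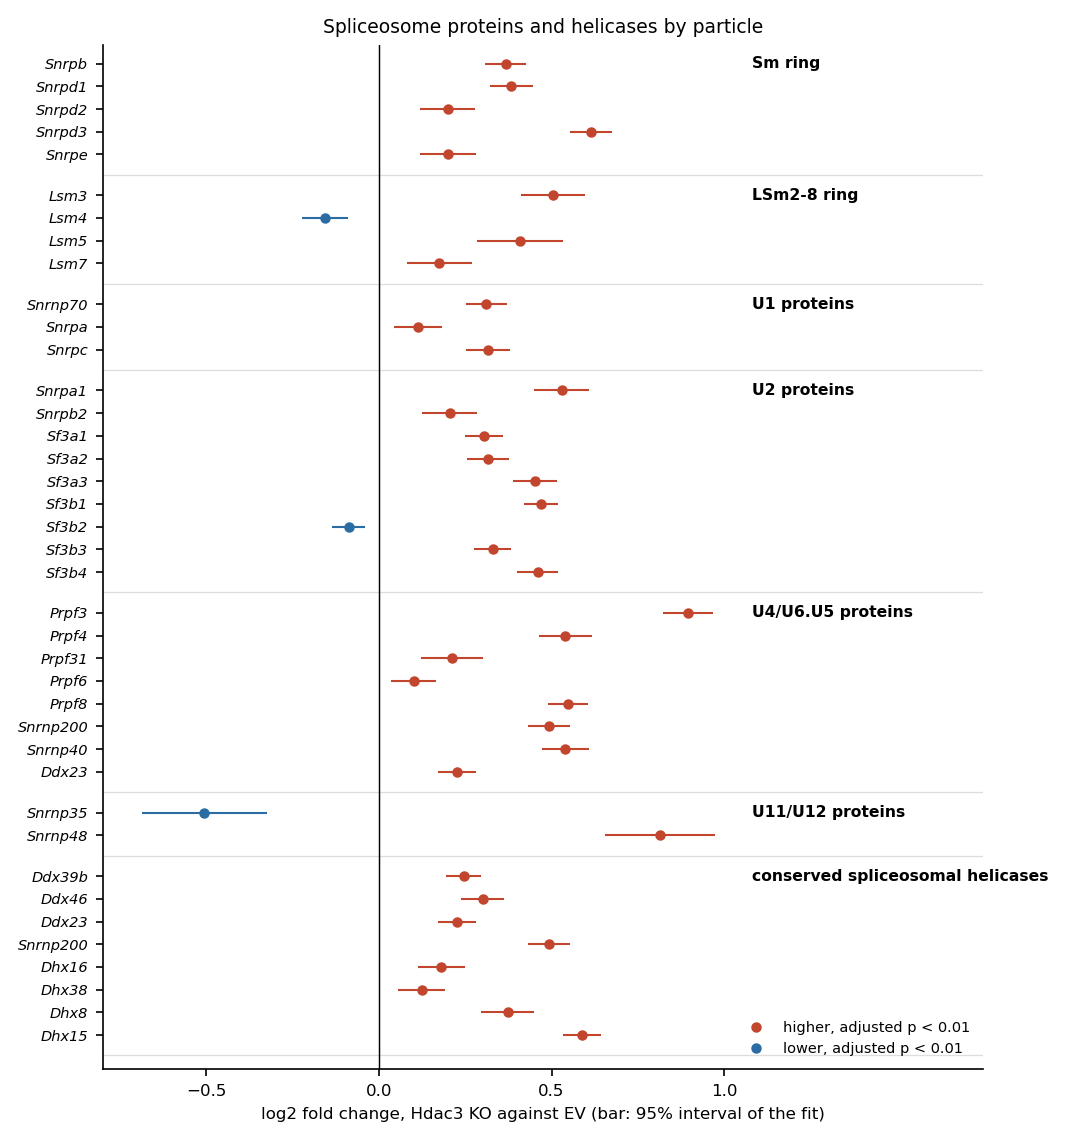
Log2 fold change of spliceosome members in *Hdac3* KO against EV MCECs with 95% intervals of the edgeR fit, grouped by particle; *Ddx23* and *Snrnp200* appear both under U4/U6.U5 and under the helicases. All points lie right of 0 except *Lsm4*, *Sf3b2* and *Snrnp35*, and *Prpf3* and *Snrnp48* lie furthest right.

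SR proteins bind exons and recruit the splicing machinery. All 9 Srsf genes in the table were higher, with a median log2 fold change of 0.36 (0.24 without TMM, where 8 were called). *Srsf1*, the founding member of the group (chr11:88047373-88053755), had 5589.8, 5484, 5401 and 5182 normalized counts in EV and 7444, 7869, 8125 and 8006 in *Hdac3* KO MCECs. Its groups were far apart, 1.45-fold, with a log2 fold change of 0.54 ± 0.03 (SE) and an adjusted p of 3.27e-18 in edgeR's test. *Srsf9* moved least, from 2220.1 ± 72.9 to 2479 ± 104 normalized counts (SD, n = 4), and was not called without TMM (0.04). *Srsf2*, *Srsf3* and *Srsf7* lay close together at 0.35, 0.36 and 0.36, and *Srsf6* was at 0.52. *Srsf2* shares 25.3% of its exon bases with *Mettl23* and *Mfsd11* on the opposite strand. The SR protein kinases, which phosphorylate SR proteins, had 2 of 7 genes in the table, *Clk1* at 0.34 and *Srpk1* at 0.35, both called higher.

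The hnRNPs coat nascent transcripts and include the most abundant members. All 19 with values increased in the KO, but with a median of 0.23, which became 0.11 with 12 calls when TMM was left out, where *Hnrnph2* (-0.01) and *Hnrnpul2* (-0.02) lay just below 0. *Hnrnpa1*, a splicing repressor and the member with the highest FPKM, had 17711, 17618, 16896 and 17500.0 normalized counts in EV and 21304, 21402, 22324 and 21172 in the KO libraries, a log2 fold change of 0.31 ± 0.02 (SE). The next in EV FPKM were *Hnrnpk* (287), which binds C-rich RNA, *Ddx5* (264), a helicase of transcription and splicing, *Hnrnpa2b1* (255) and *Hnrnpa0* (219). Their log2 fold changes were 0.30, 0.13, 0.24 and 0.16, all called. *Ddx5* and *Hnrnpa0* lost that call without TMM, where they stood at 0.01 and 0.05. At the upper end *Hnrnpab* had 9631, 9621, 9410.3 and 10087 against 14192, 14045, 12187 and 13174 normalized counts, a log2 fold change of 0.47 ± 0.03 (SE). *Hnrnpab* shares 29.1% of its exon bases with *Phykpl* on the opposite strand. *Hnrnpul2* was at the lower end, 0.10 ± 0.03 (SE), and turned to -0.02 without TMM.

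RNA-binding proteins of the Rbm names have mixed roles, and their results were mixed as well: 21 of 26 were higher, 4 lower and 1 not called. Without TMM 13 were higher and 4 lower, and the median went from 0.28 to 0.16. *Rbm38*, a target gene of p53 that binds mRNA, had 409, 448, 398 and 418 normalized counts in EV and 744, 689, 772 and 777 in the KO libraries, a log2 fold change of 0.83 ± 0.05 (SE), adjusted p = 7.58e-16 in edgeR's test. It shares 13.4% of its exon bases with *Gm14453* and *Gm20490* on the opposite strand. *Rbm3*, a gene induced by cold, had 6030.5, 5777, 5797 and 5712 against 5124, 4905, 5190.3 and 5219, and all KO libraries lay below all EV libraries (log2 fold change -0.19 ± 0.03 (SE)). *Rbm43* had 351, 353, 366 and 364 against 265, 261, 251 and 283, a log2 fold change of -0.44 ± 0.07 (SE). The neighbours *Rbm4* and *Rbm4b* went apart. *Rbm4b* had 514, 509.6, 515 and 445 normalized counts in EV and 373, 356, 331 and 350.0 in *Hdac3* KO MCECs, while *Rbm4* had 41.3, 50.9, 37.4 and 41.5 against 61.8, 51, 67.5 and 69.1. The groups did not overlap for either gene, but the highest EV value of *Rbm4* lay right below its lowest KO value. Without TMM *Rbm4* lost its call (log2 fold change 0.43, adjusted p = 0.0154 in edgeR's test). Values of this pair are uncertain: *Rbm4* shares 60.5% of its exon bases with *Gm21992* on the same strand and *Rbm4b* shares 30.8% with *Gm37206* on the other. *Rbm5*, a splicing regulator of apoptosis genes, differed by -0.13.

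**Figure D3:**
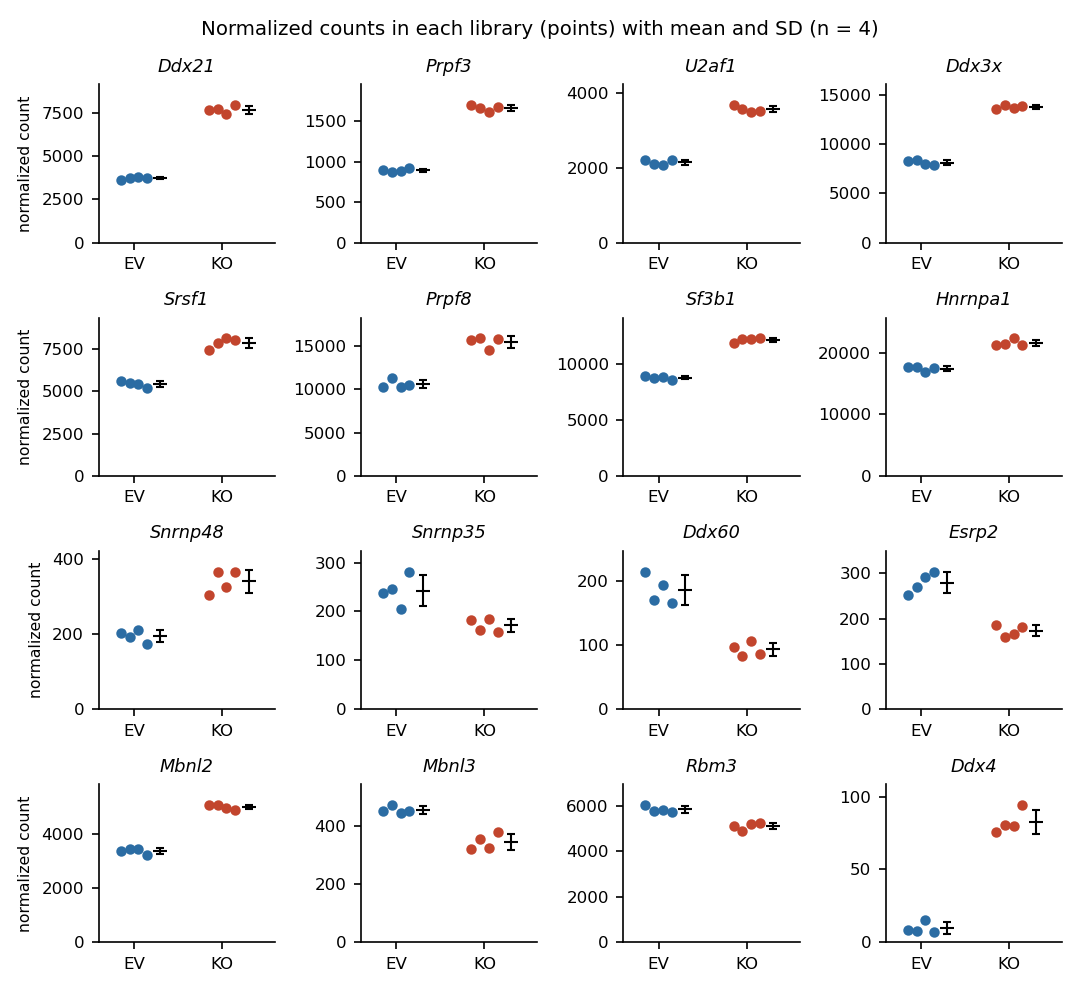
Normalized counts of 16 members in each EV and *Hdac3* KO library, with the mean and SD (n = 4) beside the points and each axis starting at 0. In all 16 panels the groups do not overlap, which also holds for 91.1% of all genes in the table. Several of these members were named by a rule that required no overlap. *Snrnp35*, *Ddx60*, *Esrp2*, *Mbnl3* and *Rbm3* are the panels in which the KO is lower.

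The helicases that drive the spliceosome cycle were all higher. These are 8 genes: *Ddx39b*, *Ddx46*, *Ddx23*, *Snrnp200*, *Dhx16*, *Dhx38*, *Dhx8* and *Dhx15*, from assembly through catalysis to the release of the spliced mRNA and the lariat. Their log2 fold changes ran from 0.12 (*Dhx38*) to 0.59 (*Dhx15*), with a median of 0.27, and 6 of the 8 were called without TMM. *Dhx15*, which takes the spent spliceosome apart, had 4344, 4317, 4256 and 4068 normalized counts in EV and 6415, 6239, 6294 and 6557 in the KO libraries, a log2 fold change of 0.59 ± 0.03 (SE) with an adjusted p of 7.88e-20 in edgeR's test. *Dhx8*, which releases the mRNA, went from 1093 ± 41.1 to 1417 ± 50.7 normalized counts (SD, n = 4). The 2 members that act earliest, *Ddx39b* and *Ddx46*, differed by 0.25 and 0.30.

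Genes that act on ribosomal RNA in the nucleolus had a higher median log2 fold change (0.48) than the spliceosomal helicases (0.27). Of 17 listed genes (Ddx, Dhx and Rbm names) 16 were in the table and all 16 were higher (14 without TMM, with a median of 0.36). *Ddx21*, at chr10:62580248-62602298, had 3631, 3734, 3762 and 3713 normalized counts in EV and 7633, 7743, 7399 and 7938 in *Hdac3* KO MCECs. The KO libraries lay at 2.07 times the EV level, a log2 fold change of 1.05 ± 0.03 (SE) with an adjusted p of 3.43e-27 in edgeR's test, which is the largest increase of a member with at least 100 normalized counts. *Ddx18* had 1464, 1428, 1476 and 1509 against 2356, 2415, 2413 and 2465, a log2 fold change of 0.71 ± 0.03 (SE). *Ddx55*, *Ddx56*, *Ddx31* and *Rbm34* followed at 0.60, 0.58, 0.57 and 0.53. *Rbm28* (0.10) and *Ddx51* (0.13) changed least and lost their call without TMM, where they stood at -0.01 and 0.02.

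*Ddx19b*, *Ddx3x* and *Ddx20* were also among the 10 members with the largest increases at a level of at least 100 normalized counts. *Ddx19b* frees mRNA from its proteins at the nuclear pore. It had 478, 472, 476 and 501 normalized counts in EV and 908, 939, 846 and 841 in the KO libraries, a log2 fold change of 0.87 ± 0.05 (SE). *Ddx3x*, an X-linked helicase that helps translate structured mRNAs, had 8258, 8332, 7937 and 7845 against 13516, 13925, 13632 and 13851, 1.7-fold, with an adjusted p of 5.06e-24 in edgeR's test. At 92.2 FPKM in EV and 144 in *Hdac3* KO MCECs it was the most abundant of the 10 members with the largest increases other than *U2af1*. *Ddx20*, a partner of SMN in building snRNPs, had 721, 694, 689 and 667 against 1069, 1073, 1077 and 1125 normalized counts, a log2 fold change of 0.65 ± 0.04 (SE). *Ddx4*, a helicase of germ cells, is the extreme of the members by ratio at a very low level. Its normalized counts were 8.27, 7.74, 15.6 and 7.06 in EV and 75.4, 80.1, 79.7 and 94.3 in *Hdac3* KO MCECs, which come from 7, 7, 15 and 8 against 72, 88, 85 and 101 reads. The fitted log2 fold change was 3.08 ± 0.22 (SE) and its 95% interval 2.65 to 3.51. Its level rose from 0.181 to 1.42 FPKM, the lowest EV level among the 146 members.

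A few helicases were lower. *Ddx60*, an interferon-induced helicase of antiviral defence (chr8:61928087-62037701), had 215, 170.2, 194 and 166 normalized counts in EV and 97.4, 83.8, 106 and 86.8 in *Hdac3* KO MCECs. Every KO library was below every EV library, and the log2 fold change was -0.99 ± 0.11 (SE) with an adjusted p of 4.53e-10 in edgeR's test. *Dhx34*, which acts in nonsense-mediated decay, had 261, 287, 267 and 288 against 199, 215, 199 and 194, a log2 fold change of -0.45 ± 0.08 (SE). *Dhx57* (-0.38 ± 0.06 (SE)) and *Ddx59* (-0.27 ± 0.07 (SE)) were lower as well. The Ddx names had 28 higher and 2 lower of 30 (median 0.41), the Dhx names 9 higher, 2 lower and 1 not called of 12 (median 0.16). Without TMM the Ddx names had 23 higher and 2 lower (median 0.29), while of the Dhx names 5 were higher, 2 lower and the rest not called (median 0.042).

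RefSeq promoter windows, 250 bases before to 50 after a start site (GRCm38.p6), matched 124 members and 6132 genes of the table, and were searched on both strands for the letters of common promoter elements. The ETS letters CCGGAAG stood in 29.8% of member windows and 18.6% of all, the NRF1 letters (GCGCA, any base, GCGC) in 16.9% and 10.6%, and CCAAT in 47.6% and 38.7%. Shares were closer for the GC box GGGCGG (64.5% and 67.4%), the E-box CACGTG (10.5% and 10.9%), TATAAA (8.87% and 6.90%), the CRE letters TGACGTCA (4.03% and 3.39%) and the ISRE letters of interferon genes (GAAA, any 2 bases, GAAA; 3.23% and 3.36%). Median GC content was 60.0% in member windows and 61.7% in all. These shares describe letters, not bound sites. The ISRE letters stood in the windows of *Ddx49* (29.8% of its exon bases shared with *Homer3* on the opposite strand) and *Rbm28*, which were higher, and at 2 places each in those of *Ddx60* and *Rbm43*, which were lower. In all, 24 windows (0.391%) held them at 2 or more places, in genes that include *Ddx60* and *Rbm43*. Of the other 22 genes 20 were called lower and 2 higher in *Hdac3* KO MCECs, where 48.8% of all 6132 genes with a window were called lower and 47.7% higher. This count, with its cut at 2 or more places, was made after the matches in *Ddx60* and *Rbm43* were seen. A role of these letters in the direction of change was not tested.

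The 250 bases before the start sites of *Ddx60* and *Rbm43* are shown because of these repeated ISRE letters, and those of *Prpf3* and *U2af1*, among the members with the largest increases, because both hold the NRF1 letters. Of the 10 members with the largest increases 9 had a window, and the other 7 did not hold these letters. The 4 stretches lie at chr8:61927837-61928086 (+), chr2:51935164-51935413 (-), chr3:95855886-95856135 (-) and chr17:31658755-31659004 (-), read 5′ to 3′ along the gene. Capitals mark every match to the letters above.
*Ddx60*: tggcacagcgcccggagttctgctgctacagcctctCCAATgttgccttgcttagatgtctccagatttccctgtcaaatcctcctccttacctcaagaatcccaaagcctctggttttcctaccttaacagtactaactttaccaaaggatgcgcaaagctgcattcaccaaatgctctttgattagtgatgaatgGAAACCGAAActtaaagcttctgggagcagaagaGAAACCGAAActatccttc
*Rbm43*: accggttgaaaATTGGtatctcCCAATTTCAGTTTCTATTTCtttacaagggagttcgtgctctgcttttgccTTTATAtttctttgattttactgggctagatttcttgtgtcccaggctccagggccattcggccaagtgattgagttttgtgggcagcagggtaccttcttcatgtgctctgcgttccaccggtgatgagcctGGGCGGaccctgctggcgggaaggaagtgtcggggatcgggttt
*Prpf3*: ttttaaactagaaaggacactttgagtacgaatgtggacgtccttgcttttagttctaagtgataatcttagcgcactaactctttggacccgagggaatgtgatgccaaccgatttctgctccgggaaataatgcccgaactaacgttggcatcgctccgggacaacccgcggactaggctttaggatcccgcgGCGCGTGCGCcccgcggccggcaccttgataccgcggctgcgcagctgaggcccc
*U2af1*: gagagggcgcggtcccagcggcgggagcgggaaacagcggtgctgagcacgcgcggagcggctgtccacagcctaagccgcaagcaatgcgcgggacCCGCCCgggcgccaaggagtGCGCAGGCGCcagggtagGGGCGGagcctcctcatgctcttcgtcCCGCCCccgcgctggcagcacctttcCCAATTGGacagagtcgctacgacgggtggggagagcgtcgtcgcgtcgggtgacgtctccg
In *Ddx60* both ISRE matches begin close to the start site, 53 and 19 bases before it. In *Rbm43* they overlap each other and begin 224 and 218 bases before it. The NRF1 match begins 55 bases before the start in *Prpf3* and 133 in *U2af1*, where 3 GC boxes and a pair of overlapping CCAAT matches stand around it. No test of these letters against the expression values was made.

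The regulators of cell type splicing were the family without a common direction. Of 8 genes 4 were higher and 4 lower, a split near that of the whole table (47.1% higher and 49.6% lower). The median was -0.003 (-0.12 without TMM). *Mbnl2* and *Mbnl3*, both muscleblind genes, went apart: *Mbnl2* had 3399, 3442, 3478 and 3236 normalized counts in EV and 5087, 5093, 4961 and 4914 in *Hdac3* KO MCECs, while *Mbnl3* had 450.1, 471, 442 and 448 against 322, 355, 323 and 377. Neither overlapped between groups, with log2 fold changes of 0.57 ± 0.03 (SE) and -0.39 ± 0.06 (SE). *Celf1*, which counteracts muscleblind proteins on shared exons, went from 3853 ± 110.5 to 5474 ± 90.6 normalized counts (SD, n = 4). *Esrp2*, which sets epithelial exon use, had 252, 271, 291 and 304 against 185, 158, 167 and 182 normalized counts, a log2 fold change of -0.70 ± 0.08 (SE) with an adjusted p of 2.42e-09 in edgeR's test. At 4.22 FPKM in EV it was a low transcript. *Ptbp1*, a repressor that binds pyrimidine tracts, was higher (0.30, with 20.7% of its exon bases shared with genes on the opposite strand) and its relative *Ptbp3* lower (-0.16). *Rbfox2*, the RBFOX gene in the table, was lower by a like amount (-0.18).

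Close relatives, and the U11/U12 proteins *Snrnp48* and *Snrnp35*, which share a particle only, were set side by side by the log2 ratio of their normalized counts within each library. The 10 pairs were picked with the values known, so the ratios are a description without a test. The ratio of *Ddx21* to *Ddx50*, adjacent helicase genes 13725 bases apart on chr10, was 1.27 ± 0.03 in EV and 2.04 ± 0.05 in *Hdac3* KO MCECs (SD, n = 4). That of *Ddx19b* to *Ddx19a*, 5388 bases apart on chr8, was higher by 0.48 in the KO, with an SD of 0.07 in each group. Both genes of each of these pairs were higher, by unequal amounts. *Mbnl2* against *Mbnl3* went from 2.90 ± 0.06 to 3.86 ± 0.12, and *Snrnp48* against *Snrnp35* from -0.31 ± 0.31 to 0.98 ± 0.24, the largest shift of the 10. *Rbm4* against *Rbm4b* shifted by 1.02, *Ptbp1* against *Ptbp3* by 0.46, *U2af1* against *U2af2* by 0.39, *Rbm6* against *Rbm5* by 0.27 and *Ddx39* against *Ddx39b* by 0.17. *Ddx39* shares 17.4% of its exon bases with *Adgre5* on the opposite strand. In these 9 pairs the ratios of the groups did not overlap. *Ddx5* and *Ddx17* kept their ratio within the spread of the libraries, 1.30 ± 0.04 in EV and 1.27 ± 0.03 in *Hdac3* KO MCECs.

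The other genes of the pathway were counted in the same way. Of 77 listed splicing factors with other names 59 were in the table, and 50 were higher, 2 lower and 7 not called, with a median log2 fold change of 0.28. Without TMM 36 of these were higher and 3 lower (median 0.16). *Fubp1* (0.97), which binds single-stranded DNA and RNA, and *Isy1* (0.62), a spliceosome component, were the highest, and the lower ones were *Tia1* (-0.44), which binds U-rich RNA, and *Zmat2* (-0.25). All 5 genes of the exon junction complex list were higher on both scales (median 0.30, and 0.18 without TMM). *Upf3b* (0.66), which links the complex to nonsense-mediated decay, and *Magohb* (0.45) were the highest, and the core genes *Casc3* and *Magoh* (both 0.28) the lowest. Among the genes that build snRNPs in the cytoplasm, 8 of the 9 in the table were higher on both scales (median 0.55, and 0.43 without TMM), led by *Wdr77* (0.80), a partner of the arginine methylase that marks Sm proteins, and *Gemin5* (0.75), which binds the small nuclear RNAs. *Gemin8* (-0.54), of the same complex as *Gemin5*, was lower, and *Gemin2* (0.42), the partner of SMN, had the smallest of the increases. Nonsense-mediated decay had 6 higher and 2 lower of 8 (median 0.21), but 4 higher and 2 lower without TMM (median 0.092), with *Smg5* at 0.43 and *Smg8* at 0.39 as the highest, and *Smg6* at -0.23 and *Upf3a* at -0.21 as the lowest. RNA helicases of other names had 4 higher, among them the translation helicase *Eif4a1* (0.45) and *Skiv2l2* (0.38) of the nuclear exosome, and 3 lower, among them *Skiv2l* (-0.44) of the cytoplasmic exosome and *Mov10* (-0.34). With TMM, the 4 higher and 3 lower of these 7 helicases lay near the split of all genes. Without TMM these helicases had 3 higher and 3 lower.

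As a share of all reads, without TMM, the 146 members took 2.52%, 2.50%, 2.49% and 2.50% of the EV libraries and 2.83%, 2.87%, 2.85% and 2.82% of the *Hdac3* KO libraries. The KO share was 1.14 times the EV share, and no KO library reached down to the EV range. Each family's summed share was larger in all KO libraries than in any EV library. A sum is set by its abundant genes: on the same scale 3 of the 8 regulators were called higher and 4 lower, with a median of -0.12. The ratio was lowest for the regulators (1.06) and the Rbm names (1.06) and highest for U2AF (1.27), followed by the SR proteins (1.21) and the Ddx names (1.20). The hnRNPs alone held 0.845% of EV and 0.930% of KO reads, a ratio of 1.10.

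**Figure D4:**
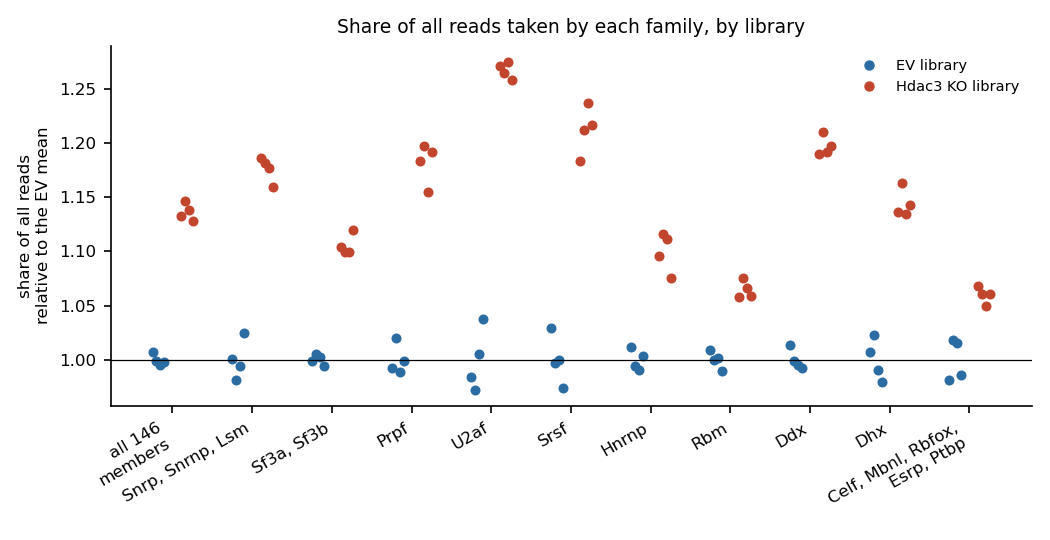
Share of all reads taken by the 146 members and by each family in every library, relative to the mean of the EV libraries (line at 1); the vertical axis does not start at 0. The KO points lie above the EV points in every column, from about 1.06 times the EV mean for the Rbm names and the regulators to 1.27 times for U2AF.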

How the data were processed

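RNA of 4 *Hdac3* KO and 4 EV MCEC samples was compared. Groups and replicate numbers came from the sample titles. Per the methods, alignment to mm10 by the authors used tophat2 and bowtie2. The submitters' processing notes name CASAVA and DESeq 1.6.3, and the statistics section DESeq2, while the methods name the cufflinks suite for differential expression of transcripts. Which program made the deposited counts, with which annotation and use of strand, is not given in the sources used here. The counts deposited by the authors are raw numbers of reads. Their FPKM, also deposited, divides each count by gene length and library total. The authors' adjusted p-value was used only to see that all 8278 genes lie under 0.05, and the authors' fold changes were not used. Gene length is another deposited column, used with FPKM to recover library totals. Of these the table holds 84.3% to 84.4% in EV and 85.8% to 85.9% in KO libraries.

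Counts were tested with edgeR 4.0.16 in R 4.3.3 (quasi-likelihood, TMM on the recovered totals, no filter), with Benjamini-Hochberg adjustment over all 8278 genes and a cut-off of 0.01. Normalized counts are reads over relative library size; intervals are those of the fit at 95%. The 36 members named by rule were the 10 highest and 10 lowest called members with no overlap of groups and a mean of at least 100 in the higher group, each family's extremes, and the 5 highest in EV FPKM; from each other list, the 2 highest and 2 lowest. The two-sided exact permutation test over 70 arrangements of 4 against 4 gave p = 0.0286, the smallest it can give, for each of these 36; for the 10 highest and 10 lowest this follows from their choice by no overlap and is no added support. Other members given with values were chosen for their role after their values were seen. The members and all gene lists were chosen with earlier results of these data known. Alternatives were DESeq2 1.42.0, its size factors, totals without TMM, a filter of 10 counts in 4 libraries, protein-coding genes only, a replicate block, other cut-offs and leaving out each library. The test was also run on simulated counts in which few genes changed. Most genes of the table were called, so that run does not measure the error rates here. Reads carry no molecular identifiers, so depth covers counting error only. Coordinates are those of the table; exon overlaps of the members come from GENCODE. Figures used matplotlib 3.10.9 and Python 3.11.15.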

Additional observations from a re-analysis of the deposited data

Results flagged for a closer look

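In 72 groups of 4 libraries (36 members in each group) the highest or lowest library was compared with the others by Dixon's test at the 95% level, which chance passes in about 1 in 20 groups; 3 groups passed. EV replicate 3 held 15.6 normalized counts of *Ddx4*, where the other EV libraries held 7.06 to 8.27. *Hdac3* KO replicate 4 held 1125 normalized counts of *Ddx20*, where the other KO libraries held 1069 to 1077. EV replicate 4 held 444.9 normalized counts of *Rbm4b*, where the other EV libraries held 509.6 to 514.8. Each of these libraries stood on its own group's side of the gap between the groups.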

How the results depend on the processing

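With library totals in place of TMM, 91 members were higher and 16 lower, and the median log2 fold change was 0.18 over the members, 0.22 for the Snrp, Snrnp and Lsm names, 0.21 for SF3, 0.17 for Prpf, 0.41 for U2AF, 0.24 for Srsf, 0.11 for Hnrnp, 0.16 for Rbm, 0.29 for Ddx, 0.042 for Dhx and -0.12 for the regulators. *Prpf19* (-0.080) and *Hnrnpul2* (-0.020) turned in sign there (*Prpf19* was then called lower), and *Ddx5*, *Hnrnpa0* and *Srsf9* lost their call. DESeq2, and its size factors in edgeR, gave a member median of 0.31, with 126 and 128 members higher. Beyond 0.5 on the log2 scale 28 members were higher and 3 lower. Leaving out each library in turn gave 119 to 126 higher and 14 to 15 lower members, member medians of 0.30 to 0.31, and medians of 0.33 to 0.37 for the Snrp, Snrnp and Lsm names, 0.38 to 0.42 for Ddx and 0.15 to 0.19 for Dhx; *Hnrnpul2* lost its call without EV replicate 3. Same-numbered libraries did not deviate together (correlation -0.09 to 0.10 over 7531 genes), so the numbers do not pair the samples; with the replicate number as a block 128 members were higher and 15 lower. Of the alternatives for the 36 named members, 498 values kept direction and call, 4 lost the call and 2 turned. The cause of these differences was not tested. Genes outside the table limit every count of members.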
